A study of Mus musculus with 6 samples.

Results

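Accessible chromatin inside protein-coding genes of 50 kb or less was described in mouse embryonic stem cells profiled by ATAC-seq, an assay in which the transposase Tn5 inserts sequencing adapters into open DNA. A peak was taken as inside such a gene when it lay on chromosomes 1 to 19, overlapped a protein-coding RefSeq gene body, stayed more than 1 kb from both ends of every annotated gene of any biotype, and had no longer protein-coding gene than 50 kb over it. By this rule 9225 of 75108 autosomal peaks were such short-gene peaks (12.3%, 95% Wilson interval 12.0 to 12.5). The rule used positions only, and no peak height.

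The cells were E14 embryonic stem cells carrying an NSD1-dTAG knock-in, a tag through which the histone methyltransferase NSD1 can be degraded by the compound dTAG-13. They were grown on gelatin in 2i/LIF medium, which holds a MEK inhibitor, a GSK3 inhibitor and the cytokine LIF, and received no dTAG-13. The series has 6 samples, 1 in each of 6 groups, and the 5 others, treated with 500 nM dTAG-13 or differentiated as embryoid bodies with or without it, were not analysed here. With 1 library and no replicate there is no test between conditions, whether the knock-in line is 1 clone is not stated in the labels, and all intervals below cover counting error only.

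Introns of active genes are known to hold enhancers, which bind transcription factors and raise transcription from a promoter nearby or far away, and alternative promoters, from which shorter transcripts start. Gene ends hold the main promoter and the site of transcript cleavage. Many mammalian promoters lie in CpG islands, stretches rich in CpG dinucleotides that stay unmethylated and accessible, whereas enhancers are mostly poor in CpG. In naive stem cells both kinds of element are bound by factors such as OCT4, SOX2, KLF4 and ESRRB.

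The sequences that carry the clearest contrast among these sites are start windows that RefSeq lists inside gene bodies, each 250 bases before to 50 after a transcript start. The first 4 below lie under the tallest short-gene peaks at such starts. Ldha and Hoxd11 are members of the gene lists with a peak at theirs, and Pou5f1 and Elf5 are list members whose internal start had no peak. All are read 5′ to 3′ on the gene's strand from RefSeq on GRCm38.p6, in lower case, with each CpG dinucleotide in capitals.
Rfx1: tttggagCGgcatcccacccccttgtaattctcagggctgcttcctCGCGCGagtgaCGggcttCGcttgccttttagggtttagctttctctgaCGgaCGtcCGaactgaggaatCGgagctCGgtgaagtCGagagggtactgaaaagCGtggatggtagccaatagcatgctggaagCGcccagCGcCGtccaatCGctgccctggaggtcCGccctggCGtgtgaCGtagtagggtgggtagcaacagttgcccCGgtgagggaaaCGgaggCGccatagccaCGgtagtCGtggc
Aktip: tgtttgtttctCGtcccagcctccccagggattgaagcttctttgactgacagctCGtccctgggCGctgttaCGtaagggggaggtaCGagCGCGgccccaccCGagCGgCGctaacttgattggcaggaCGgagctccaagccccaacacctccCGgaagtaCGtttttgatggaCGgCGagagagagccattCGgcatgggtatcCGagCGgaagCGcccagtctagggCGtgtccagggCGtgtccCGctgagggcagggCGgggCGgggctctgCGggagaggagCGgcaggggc
Mesd: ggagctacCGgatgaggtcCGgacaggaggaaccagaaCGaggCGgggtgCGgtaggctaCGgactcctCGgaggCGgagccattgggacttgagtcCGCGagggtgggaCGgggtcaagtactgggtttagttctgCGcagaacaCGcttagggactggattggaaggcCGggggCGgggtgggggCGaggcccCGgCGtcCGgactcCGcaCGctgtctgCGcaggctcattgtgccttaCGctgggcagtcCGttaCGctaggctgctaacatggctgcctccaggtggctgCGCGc
Tef: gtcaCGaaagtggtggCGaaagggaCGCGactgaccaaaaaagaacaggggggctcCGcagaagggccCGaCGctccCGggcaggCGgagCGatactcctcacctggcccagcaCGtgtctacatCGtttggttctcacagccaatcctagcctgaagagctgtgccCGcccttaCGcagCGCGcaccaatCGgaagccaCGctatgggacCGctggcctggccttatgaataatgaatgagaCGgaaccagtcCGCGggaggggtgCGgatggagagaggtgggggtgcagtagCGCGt
Ldha: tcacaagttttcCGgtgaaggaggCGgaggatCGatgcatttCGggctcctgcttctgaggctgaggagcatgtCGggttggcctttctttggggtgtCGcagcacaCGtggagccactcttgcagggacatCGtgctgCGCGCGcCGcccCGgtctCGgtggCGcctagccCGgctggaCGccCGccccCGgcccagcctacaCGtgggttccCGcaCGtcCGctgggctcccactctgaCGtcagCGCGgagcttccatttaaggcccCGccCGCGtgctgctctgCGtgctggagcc
Hoxd11: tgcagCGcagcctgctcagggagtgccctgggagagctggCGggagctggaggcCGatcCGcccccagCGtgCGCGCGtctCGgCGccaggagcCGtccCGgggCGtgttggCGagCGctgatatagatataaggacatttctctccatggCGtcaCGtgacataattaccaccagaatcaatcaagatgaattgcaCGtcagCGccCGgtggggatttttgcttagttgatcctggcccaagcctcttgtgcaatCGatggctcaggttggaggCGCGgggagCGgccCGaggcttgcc
Pou5f1: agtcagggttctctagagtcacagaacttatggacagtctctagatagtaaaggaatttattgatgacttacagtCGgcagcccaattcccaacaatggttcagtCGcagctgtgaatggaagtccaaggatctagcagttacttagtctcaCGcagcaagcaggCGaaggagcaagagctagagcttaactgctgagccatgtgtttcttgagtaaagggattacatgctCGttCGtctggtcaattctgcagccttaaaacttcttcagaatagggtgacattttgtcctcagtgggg
Elf5: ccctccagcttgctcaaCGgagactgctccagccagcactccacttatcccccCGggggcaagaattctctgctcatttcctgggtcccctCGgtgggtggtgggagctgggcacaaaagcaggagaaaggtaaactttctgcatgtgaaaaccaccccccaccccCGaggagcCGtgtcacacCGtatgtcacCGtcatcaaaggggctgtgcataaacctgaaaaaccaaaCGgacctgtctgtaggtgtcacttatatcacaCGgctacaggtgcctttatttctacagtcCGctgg

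The window in Rfx1, a winged-helix transcription factor gene, is chr8:84066586-84066885 on the plus strand and holds 25 CpG. Its peak had a summit pileup, the number of overlapping reads or fragments at the summit, of 228 (95% Poisson interval 199 to 260), and no peak lay within 1 kb of the gene's outermost 5′ end, 3.27 kb away. The window in Aktip is chr8:91133978-91134277 on the minus strand, holds 26 CpG, and its peak had a pileup of 208, again with no peak at the 5′ end. The windows in Mesd, a chaperone of lipoprotein receptors, at chr7:83892016-83892315, and in Tef, a circadian bZIP factor, at chr15:81811164-81811463, hold 27 and 25 CpG and lay under pileups of 195 and 194. Both of these genes also had a 5′ peak, of 82 in Mesd and 10 in Tef. Ldha, lactate dehydrogenase A, had a pileup of 91 at chr7:46845554-46845853 with 30 CpG, and Hoxd11 had 41 at chr2:74682073-74682372 with 25 CpG. The 2 windows without a peak hold 6 CpG in Pou5f1 (chr17:35508557-35508856) and 10 in Elf5 (chr2:103423818-103424117). Other list genes had windows rich in CpG without a peak, among them Pax6 with 16 CpG and Tgif1 with 22, so these 2 do not stand for all closed starts.

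Short-gene peaks were more densely spaced than peaks inside longer genes. They fell on 196.832 Mb of sequence where the rule allows one, at 46.9 peaks per Mb (95% Poisson interval 45.9 to 47.8). The 19240 peaks inside genes over 50 kb lay at 26.6 per Mb (26.2 to 26.9), a density 1.76 times lower. Outside protein-coding genes the density was 19.4 per Mb, 2.42 times lower than in short genes, and within 1 kb of a gene end it was 130.9 per Mb, 2.79 times higher. Peaks that reach across the 1 kb limit count at the gene end, which raises that last density.

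In height, short-gene peaks sat close to the other peaks away from gene ends. Their pileup ran from 6 to 754 with quartiles of 13, 22 and 38, against a median of 19 inside longer genes, 20 outside protein-coding genes and 45 at gene ends. A pileup of at least 20 was reached by 5284 of them (57.3%), by 47.6% of peaks inside longer genes and by 79.2% of gene-end peaks. Fold enrichment, which the authors give as pileup at the summit over the background around it, ordered the intragenic classes the other way, with a median of 6.12 in short genes and 6.52 in longer ones. The local background recovered from the same values was higher in short genes, with a median of 2.43 against 1.71. The part of background in this order was not tested. The median width was 431 bp (quartiles 303 and 631) in short genes and 751 bp at gene ends. Among the 7599 autosomal peaks with pileups of 82 or more, about the tallest 10%, 543 were short-gene peaks (7.15%) and 66.5% were gene-end peaks. Peaks inside longer genes made up 10.8% of these tallest peaks. Of all autosomal peaks, 12.3% were short-gene peaks, 25.6% lay inside longer genes and 26.8% at gene ends. Both intragenic classes were thus less frequent among the tallest.

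**Figure D1:**
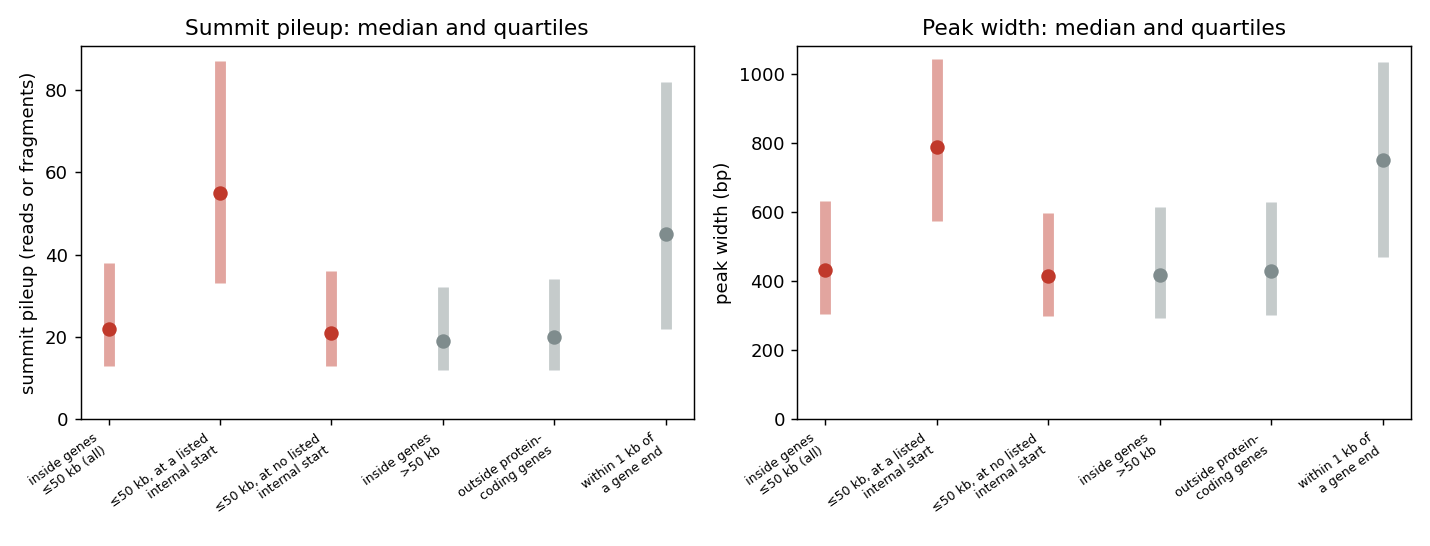
Summit pileup (reads or fragments, left) and peak width (bp, right) of short-gene peaks, all and split by overlap with a transcript start listed inside the gene, and of the other peak classes of the untreated stem cell library, with points at the median and bars over the quartiles. Short-gene peaks have a median pileup of 22, near the 19 and 20 of the other classes away from gene ends. Those at a listed internal start have 55, against 45 for gene-end peaks, which lie at the 5′ or 3′ end of genes of any biotype.

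The limits of the rule cut through similar peaks. Just inside the length limit, 785 peaks in genes of 45 to 50 kb had a median pileup of 20 and fold of 6.36, and just outside, 720 peaks in genes of 50 to 55 kb had 19 and 6.08. At the distance limit, 446 short-gene peaks within 0.25 kb beyond it had a median pileup of 27, and 1544 gene-end peaks within 0.25 kb on the gene-end side had 24.

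Within short genes, the density of all peaks was highest in genes of 10 to 20 kb. Genes of 2 to 5 kb held 112 peaks at 38.5 per Mb (31.7 to 46.4), genes of 10 to 20 kb held 2227 at 51.2 per Mb (49.1 to 53.3), genes of 20 to 30 kb held 2447 at 48.1 per Mb (46.2 to 50.0), whose interval overlaps the last, and genes of 30 to 50 kb held 3832 at 44.4 per Mb (43.0 to 45.8). With peaks of a pileup of at least 20 alone the order changed, to 29.9 per Mb in genes of 2 to 5 kb, 32.9 at 5 to 10 kb, 30.8 at 10 to 20 kb, 27.6 at 20 to 30 kb and 23.3 at 30 to 50 kb, so that the shortest class stood above the longest. The median pileup was lower in longer hosts, from 30 in genes of 2 to 5 kb and of 5 to 10 kb to 24, 22 and 20 in the longer classes. The local background moved with it, from a median of 5.73 in the shortest class to 2.05 in the longest, and its part was not tested. By distance, the density of all peaks was lowest 1 to 2 kb from a gene end, at 39.5 per Mb (37.2 to 41.8), and highest at 5 to 10 kb, at 50.6 per Mb (48.8 to 52.4). A peak with any base within 1 kb of an end was left out, though all bases beyond 1 kb were counted. The rule itself therefore lowers the density nearest the ends and in the shortest genes, by an amount that was not tested. With a pileup of at least 20 the highest density moved to 2 to 5 kb, at 30.4 per Mb, and the lowest to beyond 10 kb, at 22.6, with 26.1 at 1 to 2 kb and 26.6 at 5 to 10 kb. The peaks nearest the ends were taller, with a median pileup of 27 at 1 to 2 kb and 19 beyond 10 kb, and there too the background was higher, at 3.66 against 1.82.

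Strand was known for the hosts of 7310 short-gene peaks (79.2%), through RefSeq start windows. In 5 equal parts of the gene body from 5′ to 3′, the density was 38.4 per Mb in the first (36.1 to 40.9), then 48.2, 47.4 and 49.9, and 45.4 in the last (42.8 to 48.1). Height ran the other way, with a median pileup of 32 in the first part and 23, 22, 21 and 20 after it. The peaks kept in the 5′ part were thus fewer per Mb but taller. Counting those with a pileup of at least 20 alone gave 28.2 per Mb in the first part and in the second, and 23.0 in the last. The first and last parts adjoin the excluded 1 kb, where peaks crossing the limit were left out, and the effect on these densities was not tested. The median local background was 4.62 in the first part and 2.19 in the last, and its part in these counts was not tested. Peaks at listed internal starts made up 21.4% of those in the first part and 1.03% in the last, and without them the median pileup in the first part was 28.

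**Figure D2:**
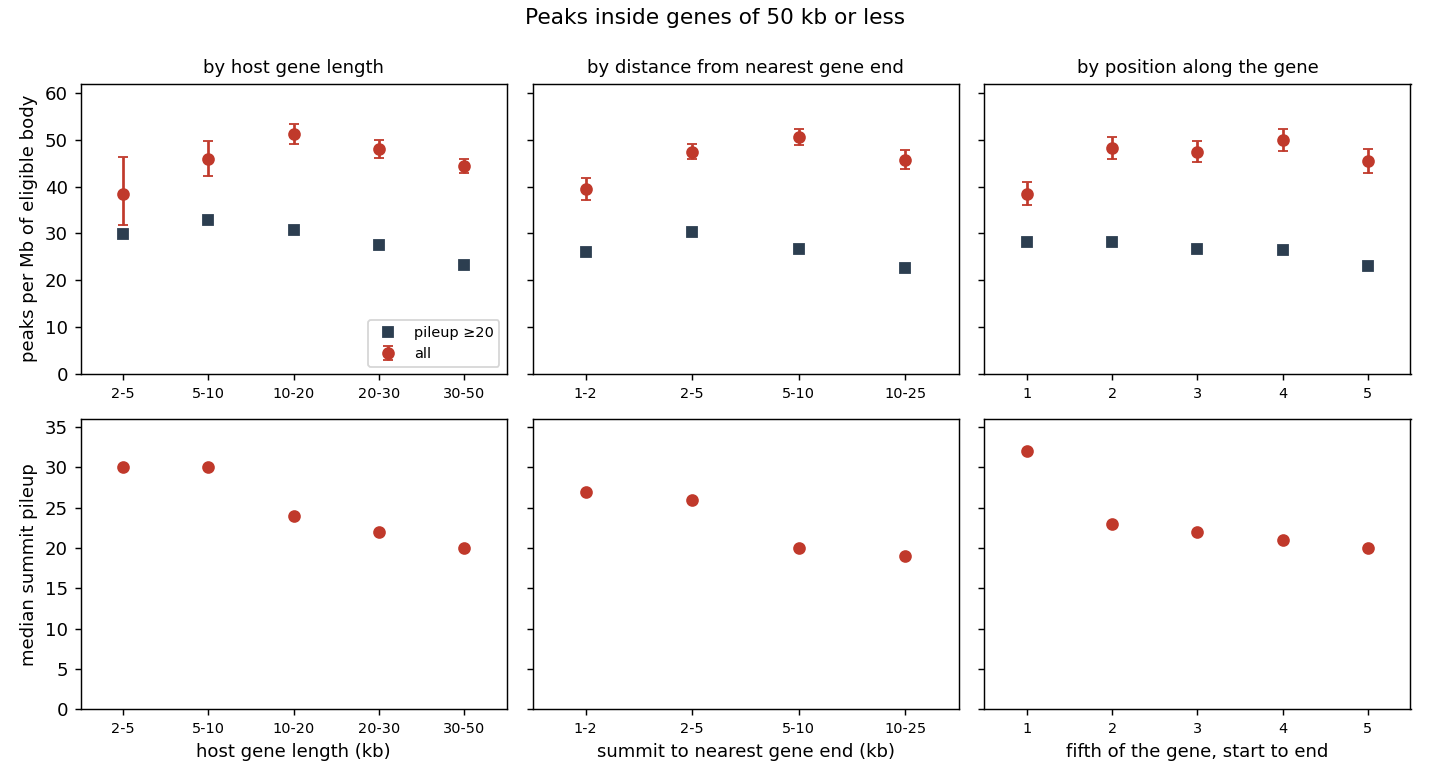
Short-gene peaks per Mb of eligible gene body (upper row, circles for all peaks with exact 95% Poisson intervals, squares for peaks with a pileup of at least 20) and their median summit pileup (lower row), by length of the host gene, by distance from the nearest gene end, and by position in 5 parts of the gene from 5′ to 3′. Density of all peaks is highest at 10 to 20 kb of length and 5 to 10 kb of distance, and the first bins hold the tallest peaks, with medians of 30, 27 and 32. Leaving out peaks that reach within 1 kb of an end lowers the density in the bins next to gene ends.

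Short-gene peaks at transcript starts inside genes were taller than the others. A listed internal start window was overlapped by 574 short-gene peaks (6.22%, 5.75 to 6.73), against 611 of the 19240 peaks inside longer genes (3.18%, 2.94 to 3.43). Listed windows were denser in short genes, with 1595 beside 196.832 eligible Mb, against 1548 beside 724.528 Mb in longer genes. The part of this in the 2 shares was not tested. Among short-gene peaks whose host has an entry in the start table, 571 of 7310 overlapped a window (7.81%). The median pileup of the 574 peaks was 55 (quartiles 33 and 87), against 21 (13 and 36) for the other short-gene peaks, a ratio of 2.62, and the median fold was 9.54 against 6.07. They were also wider, at a median of 790 bp against 415 bp. Overlap by any base of a peak set this class, so a wider peak was more likely to enter it. Taller short-gene peaks were wider, with a median of 273 bp in the faintest 10% and 767 bp in the tallest 10%. The part of width in these differences was not tested. The summit lay within 100 bp of the start in 332 of the 574 (57.8%), and upstream of it in 336 (58.5%). The share of peaks at an internal start was 0.758% in the faintest 10% of short-gene peaks and 26.3% in the tallest 10% (243 of 923, 23.6 to 29.3), so most of the tallest peaks lay at no start listed in the table, which is not complete.

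Internal starts without a peak outnumbered those with one. Of 1595 listed internal start windows in 1276 short genes, 682 lay under a short-gene peak (42.8%, 40.4 to 45.2), 82 under a gene-end peak, and 831 under none (52.1%). In longer genes 670 of 1548 such windows lay under a peak away from gene ends (43.3%, 40.8 to 45.8), an interval that overlaps that of short genes.

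CpG content differed between starts with and without a peak. The CpG ratio, observed over expected from the C and G content, had a median of 0.686 (quartiles 0.460 and 0.854) in windows under a short-gene peak and 0.210 (0.112 and 0.328) in windows under no peak. The median number of CpG was 17 against 4, and the GC content was 60.0% against 50.3%. Of windows with a ratio under 0.2, 49 of 440 lay under a short-gene peak (11.1%), and the share was 20.7% from 0.2 to 0.4, 59.6% from 0.4 to 0.6, 73.0% from 0.6 to 0.8 and 82.0% (237 of 289, 77.2 to 86.0) at 0.8 or more. The peaks were also taller over richer windows, with a median pileup of 28 in the lowest class and 70 in the highest. The windows share chromosomes, genes and base composition, so these shares describe the set.

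**Figure D3:**
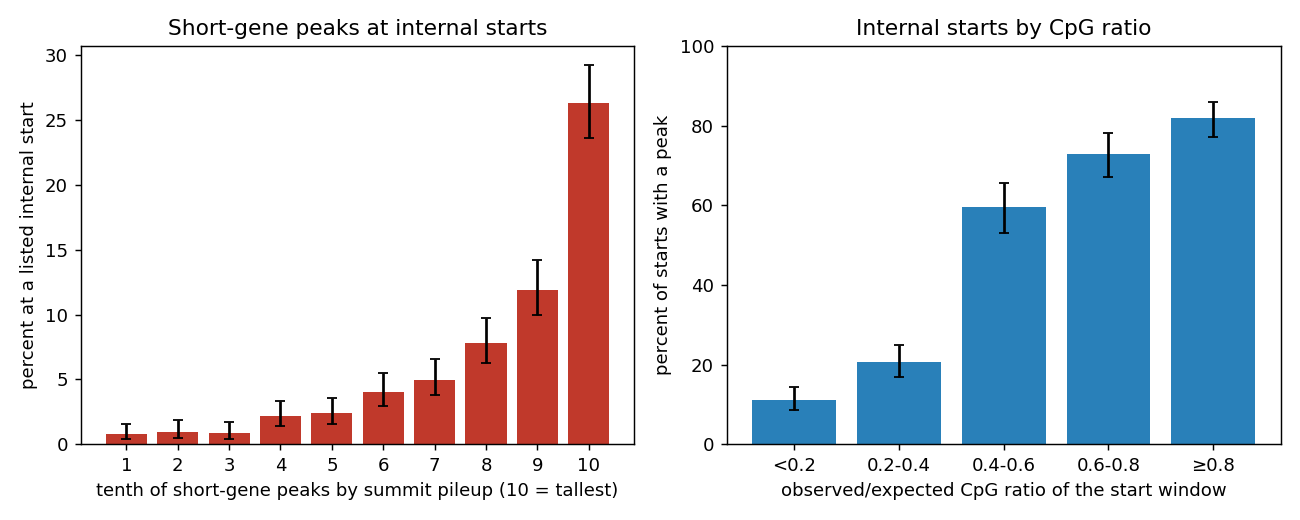
Percent of short-gene peaks at a listed internal start, in 10 classes of equal size by summit pileup (left), and percent of listed internal start windows under a short-gene peak, by CpG ratio of the window (right), as bars with 95% Wilson intervals. The first share goes from 0.758% to 26.3% with pileup, and the second from 11.1% to 82.0% with CpG ratio. Taller peaks are also wider, and a wider peak is more likely to overlap a window.

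Words of ETS, KLF and NFY factors, which act at many promoters, were more frequent in the windows under a peak. Each of 12 motifs was searched as an exact word on both strands, and a match is a description of letters and not of binding. The ETS word CCGGAAGT stood in 56 of the 682 windows under a short-gene peak (8.21%, 6.38 to 10.5), in 1 of the 831 under none (0.120%) and in 3.95% of all start windows in the autosomal table. The KLF word GGGCGTGG stood in 7.77% against 1.32% (5.45% of all), and the NFY word CCAATCAG in 6.30% against 1.68% (4.03% of all). The order was reversed for the AP-1 word TGANTCA, at 4.99% against 9.63% (7.84% of all), and the SOX word AACAATG, at 1.61% against 4.57% (3.75% of all). The TEAD word GGAATG stood in 13.5% against 17.8% (14.6% of all) and the octamer word ATGCAAAT in 2.35% against 1.32% (1.75% of all). The NRF1 word stood in 9 windows with a peak and 0 without (0.968% of all). The other words were rare and gave 9 against 11 windows for STAT (TTCCNGGAA, 1.18% of all), 5 against 1 for the CTCF core (0.334%), 3 against 2 for E2F (TTTCGCGC, 0.331%) and 2 against 3 for ESRRB (TCAAGGTCA, 0.417%). The TEAD and STAT words can overlap at their GGAA. The words also differ in CpG, so the shares were read again in 2 classes of CpG ratio, and the part of CpG content in the differences was not tested. Among windows with a ratio of at least 0.4, 552 with a peak and 136 without, ETS stood in 9.60% (7.42 to 12.3) against 0% (0 to 2.75), KLF in 8.88% (6.78 to 11.5) against 2.21% (0.753 to 6.28), and NFY in 5.98% (4.29 to 8.28) against 0.735% (0.130 to 4.05). In the same class AP-1 stood in 3.80% against 3.68%, SOX in 1.09% against 2.21% and TEAD in 11.6% against 17.6%, each with overlapping intervals. Among windows with a ratio under 0.4, 130 with a peak and 695 without, NFY stood in 7.69% (4.23 to 13.6) against 1.87% (1.10 to 3.17). There the intervals overlapped for ETS, at 2.31% against 0.144%, KLF, at 3.08% against 1.15%, SOX, at 3.85% against 5.04%, and AP-1, at 10% against 10.8%, and also for TEAD, whose order turned, at 21.5% against 17.8%. Of the windows printed above, that of Aktip holds the ETS word and that of Pou5f1 the SOX word.

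Genes with an open internal start often had no peak at their outermost annotated 5′ end. Of 552 such genes with a strand, 290 had no peak within 1 kb of that end (52.5%, 48.4 to 56.7). In the 262 with a peak at both places the heights were alike, with a median pileup of 54 inside and 54 at the 5′ end, and the internal peak was the taller one in 124 (47.3%, 41.4 to 53.4). A missing 5′ peak was about as frequent without an internal peak: of 655 short genes with a listed internal start but no peak at it, 325 had none at the 5′ end either (49.6%, 45.8 to 53.4). Across all 10316 short genes with a strand and room for a peak, 3233 had none (31.3%). Some list genes also had a short-gene peak at an internal start. Axin2, a negative feedback regulator of Wnt signalling, had an internal start peak of 95, Ldha of 91, the muscle phosphofructokinase gene Pfkm of 57, Wnt11 of 53, the Polycomb subunit gene Pcgf2 of 51, the ribosomal protein gene Rpl19 of 46 and the kinase gene Pim1 of 40.

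The tallest short-gene peak of all lay in Zc3h7a, a zinc finger gene, at chr16:11143906-11144311, with a pileup of 754 (701 to 810) and a fold of 29.9. It was 406 bp wide, below the median width, and its local background was 24.3 against a median of 2.43 over short-gene peaks. Next came Tmbim4, a Golgi membrane protein gene, with 261 over 534 bp, Rfx1 with 228, the sugar transporter gene Slc2a10 with 220, Aktip with 208, the phosphatase-like gene Dusp27 with 203, and the zinc finger genes Zfp446 and Zfp574 with 202 each. Of these 8, Rfx1 and Aktip lay at a listed internal start, and Tmbim4, Zfp446 and Zfp574 have no entry in the start table. By fold, Smco2 followed Zc3h7a with 29.1 at a pileup of 146, and then Tmbim4 with 22.7, Gm13212 with 21.3 and Slc2a10 with 20.9.

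Most short genes held no such peak. Of 12908 protein-coding genes of 50 kb or less with at least 500 bases where the rule allows a peak, 5406 held 1 or more (41.9%), and 3612 held one with a pileup of at least 20 (28%). A single peak was found in 3114 genes (24.1%), 2 in 1335 (10.3%), 3 in 561 (4.35%), 4 in 244 (1.89%) and 5 or more in 152 (1.18%). The 10% of genes with the most peaks held 44.9% of all pairs of a gene and a peak. The 9225 peaks made 9283 such pairs, so a few peaks are counted for more than 1 of these genes. With genes of any biotype, 365 peaks (3.96%) lay inside more than 1 annotated gene.

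The largest number in 1 gene was 8. Src, a membrane-anchored tyrosine kinase gene of 47.9 kb, held pileups of 50, 49, 22, 11, 93, 28, 106 and 21 from 5′ to 3′, with no peak at either annotated end. Its tallest peaks lay in the 3′ part of the body. Zbtb38, which encodes a zinc finger protein that binds methylated DNA, also held 8, with 33, 74, 55, 31, 76, 14, 15 and 8 in the same order, and the predicted gene Gm28729 held 8 of 11, 15, 9, 34, 19, 13, 35 and 99. The other genes, with 7 each, were Sema4b, a semaphorin (90, 54, 77, 64, 53, 53 and 41), Mast1, a microtubule-associated kinase (36, 41, 24, 34, 15, 36 and 154), and Rusc2, a vesicle transport adaptor (47, 76, 79, 43, 19, 19 and 15). The peaks of Sema4b ran from 41 to 90, while Mast1 had 1 peak far above its others, near its 3′ end.

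**Figure D4:**
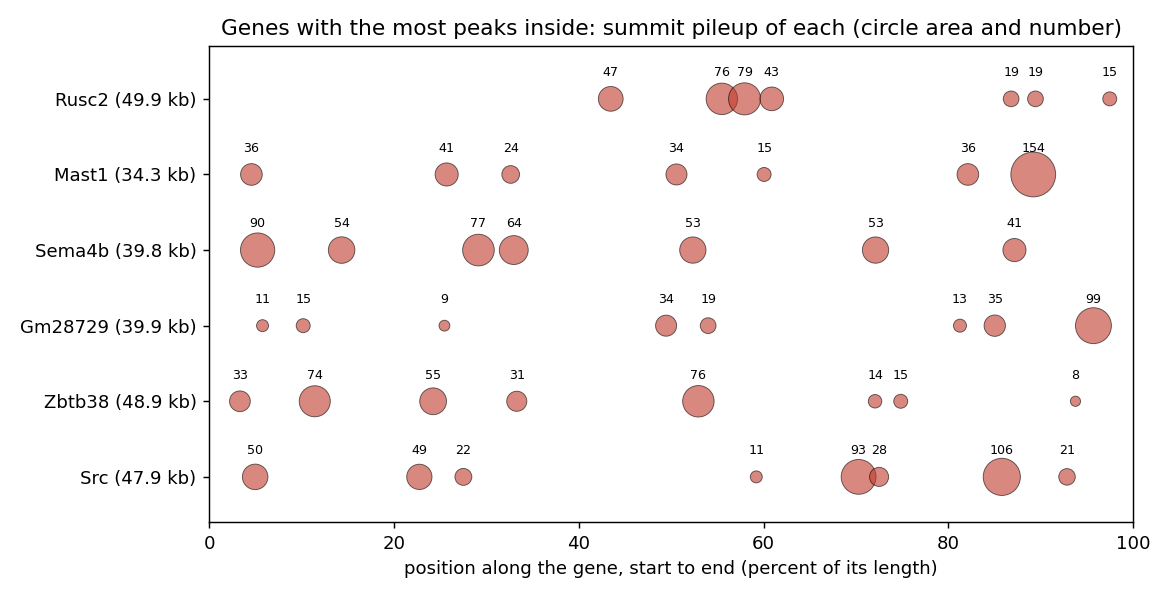
Position of each short-gene peak along the 6 genes with the most of them, in percent of gene length from the 5′ to the 3′ end, with circle area and number giving the summit pileup. Src, Zbtb38 and Gm28729 hold 8 peaks each, and Mast1 holds 1 peak of 154 among others of 15 to 41.

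Genes with an accessible end more often held a peak inside. Of the 12908 genes, 9350 had a peak within 1 kb of an end (72.4%), and 4310 of those held a short-gene peak (46.1%, 45.1 to 47.1). Of the 3558 without an end peak, 1096 held one (30.8%, 29.3 to 32.3), so closed ends did not mean an empty body. The densities were 49.8 and 37.7 per Mb. In genes of 30 to 50 kb the order was the same, at 73.8% (71.8 to 75.7) against 56.5% (52.3 to 60.5). In genes of 2 to 5 kb it was 7.14% (5.76 to 8.82) against 5.26% (3.78 to 7.25), with overlapping intervals. Among genes with a strand, the share was 46.5% with peaks at both ends, 45.3% with a 5′ peak alone, 48.9% with a 3′ peak alone and 30.2% with neither. The densities of these classes differed more, at 55.1, 46.8, 69.9 and 36.9 per Mb, with 407 genes in the class with a 3′ peak alone. The height of the 5′ peak made little difference: from the lowest to the highest of 4 equal classes of 5′ pileup the shares were 46.2%, 45.3%, 44.4% and 46.2%, against 32.5% with no 5′ peak.

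Genes of 18 lists were then read against the share of 41.9% and the density of 46.9 per Mb over all short genes. Share and density can differ, since a gene with little room away from its ends has little chance to hold a peak. Genes over 50 kb, such as Nsd1 itself (108.5 kb) and Esrrb, cannot hold a short-gene peak by the rule.

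Among core and naive pluripotency genes, 10 of 23 held a short-gene peak (43.5%), and the 18 peaks gave a density of 87.7 per Mb (52.0 to 138.6) with a median pileup of 38. Tbx3, a T-box factor of naive cells, held the tallest, of 136, and a second of 63. Mybl2, a cell cycle transcription factor, held peaks of 58, 115, 33 and 94, Sall4 held 18 and 98, Klf5 85, the RNA-binding protein gene Lin28a 54 and 27, Klf4 41, and Zfp42, which encodes the naive marker REX1, 35. Pou5f1 and Nanog, the genes of OCT4 and NANOG, held none in 2744 and 5143 eligible bases, nor did Dppa2, and Sox2 had 465 eligible bases, under the minimum of 500. Pou5f1, Nanog and Dppa2 were among the 13 eligible genes of the list without a short-gene peak.

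Formative and primed genes, which rise as cells leave the naive state, held peaks in 6 of 15 (40%), at 61.4 per Mb (26.5 to 121.0). The tallest were in the ETS factor gene Etv4, of 97, and in Fgf5, of 46, while Cer1 held none. Germ-layer regulators held them in 11 of 29 (37.9%), at 92.2 per Mb (53.7 to 147.7), with 100 in the neural filament gene Nes and 34, 39, 52, 49, 21 and 29 in Pax6, the eye and forebrain regulator. Trophoblast regulators held them in 7 of 13 (53.8%), at 93.5 per Mb (51.1 to 156.8), with 53, 111 and 30 in Tfap2a and 11, 38 and 105 in Gata3, and none in Bmp4. The median pileup was 34 in both the germ-layer and the trophoblast list, close to the 38 of the pluripotency list.

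The intervals of 4 signalling lists lay above the overall density. So did those of the pluripotency, germ-layer, trophoblast, Polycomb, glycolysis and Hox lists. Most genes of these lists had a peak at an end, as did all 11 LIF, 18 FGF, 23 Polycomb and 19 glycolysis genes. All short genes with an end peak had 49.8 peaks per Mb, which the intervals of the LIF, FGF and Polycomb lists include. The part of end peaks in the list densities was not tested. LIF, JAK and STAT genes held a short-gene peak in 7 of 11 (63.6%), at 85.2 per Mb (48.7 to 138.3), with 89 in the kinase gene Pim3 and 35, 13 and 46 in Lif, and none in Bcl3. Wnt pathway genes held one in 11 of 19 (57.9%), at 93.5 per Mb (63.1 to 133.5), with 95, 41, 14, 18, 31 and 8 in Axin2 and 91 and 70 in the receptor gene Fzd5, and none in Ctnnb1, which encodes beta-catenin. FGF and ERK genes held one in 10 of 18 (55.6%), at 88.7 per Mb (47.2 to 151.6) with a median pileup of 46, the joint highest of the lists. Besides Etv4, the feedback inhibitor genes Spry1 (67), Dusp6 (59) and Spry2 (48) held 1 each, as did Myc (51), while Egr1 held none. Nodal and BMP genes held one in 8 of 14 (57.1%), at 98.2 per Mb (61.5 to 148.7), with 67 and 36 in Tgfb1 and 5 of even height, from 24 to 31, in the inhibitory gene Smad7.

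Chromatin genes held short-gene peaks in a larger share than all genes, and also had more room away from their ends. The median was 18148 eligible bases in the Polycomb list and 39024 in the H3K36 list, against 12301.5 over all eligible short genes. The part of room in the share was not tested. Polycomb and other silencer genes held a short-gene peak in 15 of 23 (65.2%, 44.9 to 81.2), at 70.5 per Mb (47.6 to 100.6). The tallest were in 3 genes of Polycomb repressive complex PRC2 and its partners, Mtf2 (121, 16, 13, 68 and 12), the core subunit gene Eed (19, 11 and 111) and Phf19 (11, 27 and 109), whereas Cbx2 held none. All 3 eligible H3K36 methylation genes held one, Smyd2 with 28, 21 and 50, Setmar with 48 and the demethylase gene Kdm4a with 7 and 23, but 3 genes give a wide interval.

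Hox genes had the highest density, 132.1 per Mb (82.8 to 200.01), although 11 of 27 held a peak (40.7%). Their peaks were faint, with a median pileup of 16.5. Hoxd11 held 41 and Hoxb3, whose annotated body spans neighbouring Hox genes, held 32, 10, 23, 8, 13 and 12, while Hoxa5 held none. Some Hox genes overlap, so their peaks and bases are not independent.

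Glycolysis genes held a short-gene peak in 11 of 19 (57.9%), at 79.0 per Mb (50.1 to 118.5). The lactate transporter gene Slc16a3 held 93, Ldha 91, the enolase gene Eno1 86, and the hexokinase gene Hk2 7 of lower height (22, 17, 15, 12, 9, 33 and 20), and Aldoa none. Housekeeping genes held one in 7 of 21 (33.3%), at 40.9 per Mb (20.4 to 73.2), with 159 in Actb, the cytoplasmic actin gene, and 33, 19 and 151 in Ywhaz, and none in Chmp2a. Of ribosomal protein genes 1 of 18 held one (5.56%, 0.988 to 25.8), Rpl19, and Rpl10a was among those without. A further 11 had under 500 eligible bases, and the median room of the 18 was 1993.5 bp, so at 26.5 per Mb (0.672 to 147.8) the density was not distinguishable from that of all short genes.

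Genes of other cell types varied in density, and their peaks had median pileups of 13 to 25. Fibroblast genes held one in 5 of 15 (33.3%), at 20.6 per Mb (8.27 to 42.4), an interval below 46.9, with 32, 30 and 15 in Pdgfrb and 17 in Col1a1, and none in Col1a2. Of these 15 genes, 9 had a peak at an end, against 72.4% of all eligible short genes. Germline genes held one in 2 of 10, at 10.0 per Mb (1.22 to 36.3), Zp3 with 17 and Tdrd1 with 9, and none in Dazl. Blood genes held one in 4 of 12 (33.3%), at 60.9 per Mb (24.5 to 125.4), with 9, 38 and 41 in Spi1 and 35 in Tal1. Adult tissue genes held one in 4 of 18 (22.2%), at 45.5 per Mb (20.8 to 86.4), with 57 in Gfap, 11, 25 and 31 in Mb, the myoglobin gene, and none in Acta1. The blood and adult tissue intervals include the overall density.

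**Figure D5:**
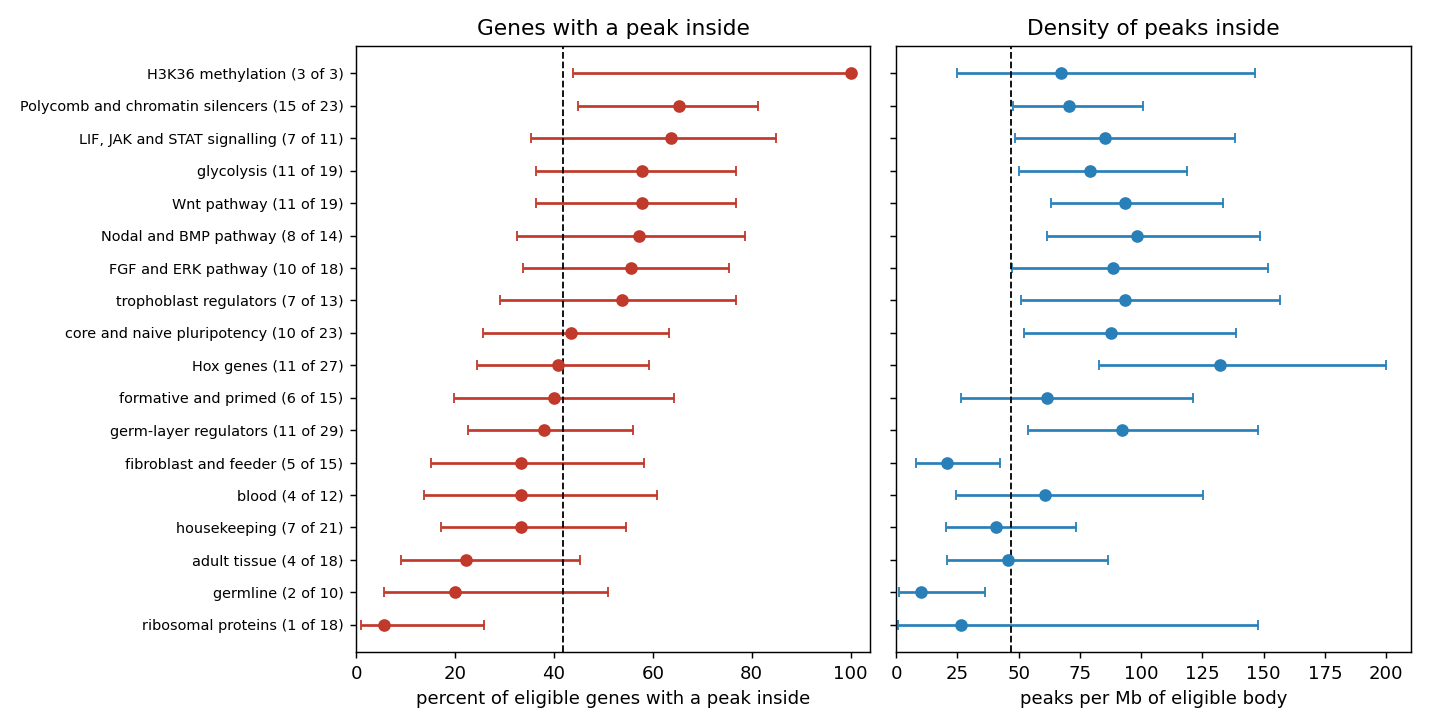
The 18 gene lists: percent of eligible genes with a short-gene peak, with 95% Wilson intervals, and short-gene peaks per Mb of eligible body, with exact 95% Poisson intervals. Dashed lines mark the values over all short genes, 41.9% and 46.9 per Mb, and Hox genes stand highest in density while germline and fibroblast genes stand lowest.

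The cell type label was read against gene-end peaks. All 10 embryonic stem cell markers had one, with pileups of 58 to 256 and a median of 109. Of 8 markers of feeder fibroblasts 4 had one, with pileups up to 38, and Col3a1, Acta2, Postn and Lum had none. Over all eligible short genes 72.4% had a gene-end peak, and the median pileup of gene-end peaks was 45. The marker values are the tallest peak per gene, while 45 is over single peaks at ends of genes of any biotype. By gene, the tallest 5′ peaks of short genes ran from 44 to 73 in the second of 4 equal classes and from 73 to 107 in the third. By chromosome, the density of short-gene peaks ran from 34.0 per Mb on chromosome 13 (30.025 to 38.4) to 58.6 on chromosome 15 (53.2 to 64.4), with a median of 46.2.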

How the data were processed

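The deposited peak list of 1 ATAC-seq library was analysed. Per the submitters' processing notes, the tools were MACS2 2.2.6, Bowtie2 2.3.4.1, SAMtools 1.9, deepTools 3.2.1 and bcl2fastq 2.20.0.422, with GRCm38.p6 (mm10). Not given in the sources used here were read filters, Tn5 shifting and the total read count. Groups follow the sample titles, since 2 other samples, titled 1 h and 24 h, carry a treatment label of 6 h. The deposited score per peak was the authors' −log10 q times 10, rounded down. The fold enrichment is the authors' ratio of pileup to local background, and their −log10 p and −log10 q stand beside it, down to a q of 0.05.

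Summit pileup and background were solved from the fold and the −log10 p. Pileups were whole for 77626 of 77629 peaks (tolerance 0.01), including all 9225 described. No source states whether pileup counts reads or fragments. Duplicates made by PCR may be among them, and would not be independent.

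Gene bodies were those of RefSeq on GRCm38.p6 (20661 autosomal protein-coding genes among 47038), and strand and internal starts from RefSeq start windows, which covered 16456 of those genes (79.6%). Peak classes were assigned by overlap of the whole interval, while each density divides by single bases that meet the same limits. Peaks reaching across the 1 kb limit count as gene-end peaks, which lowers densities just beyond it and raises that at gene ends. With the summit deciding the class, the density in short genes was 50.3 per Mb in place of 46.9. Scripts, tested on simulated data, used Python 3.11.15, numpy 2.4.6, pandas 2.3.3 and scipy 1.17.1. Intervals are 95% Wilson (shares) and exact Poisson (counts).

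The peaks and lists were chosen with earlier results of these data known. Genes named were the 8 tallest peaks, the 5 highest folds, the 6 genes with most peaks, per list the 2 tallest genes and the first without a peak, and 7 preset genes; a few genes this rule names are not reported here. The windows printed and other list genes were chosen after their values were seen. Of the 18 lists, 20 genes stand in more than 1. Alternatives changed the q limit, the end distance, the gene length, the gene set, the deciding position and the measure of height.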

Additional observations from a re-analysis of the deposited data

How the results depend on the processing

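With 1 library, no paired analysis was possible because no group has a replicate. Of the recomputed values, 96 stayed close to the reported ones, 48 moved and 2 reversed, where close means within 1.5 times for a number of peaks and within the counting error or spread for other values. For lists of few genes the counting error is wide, so a close value can still differ much. The share of ribosomal protein genes, 5.56% against 25% at 2 kb from gene ends, counted as close. Requiring a −log10 q of at least 5 gave 7233 short-gene peaks, a share of 11.8% of peaks, 36.7 short-gene peaks per Mb, a median pileup of 27.0, fold of 7.15 and width of 490.0 bp, and a gene-end to short-gene pileup ratio of 1.89. Keeping 500 bp from gene ends gave 10328 peaks, 13.8%, 48.4 per Mb and a ratio of 2.22. Keeping 2 kb gave 7709 peaks, 10.3%, 45.9 per Mb, a pileup of 21.0 and a ratio of 1.86. Keeping 5 kb gave 4891 peaks, 6.51%, a pileup of 20, a fold of 6.44, a width of 415 bp, a short-gene to long-gene pileup ratio of 1.11 and a gene-end ratio of 1.60. A length limit of 25 kb gave 4137 peaks, 5.51%, 49.0 per Mb, a pileup of 24.0, a fold of 5.97, a width of 439 bp and a gene-end ratio of 1.88. A limit of 100 kb gave 15566 peaks, 20.7%, 43.8 per Mb, a pileup of 21.0, a width of 421 bp and a gene-end ratio of 2.14. Leaving out predicted genes gave 9399 peaks, 49.0 per Mb and a gene-end ratio of 2.304. Letting the summit decide gave 9891 peaks, 13.2%, 50.3 per Mb and 446 bp. Taking the longest gene of any biotype gave 9162 peaks, leaving out the highest folds and widest peaks gave 9188, and neither moved another value.

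The order of short-gene over long-gene peaks, 1.16 by pileup, reversed to 0.939 by fold and was 1.07 by −log10 q, and the gene-end ratio was 1.48 by fold and 2.47 by −log10 q. The median background beside these folds stands with the result, and the cause was not tested. Counting peaks with a pileup of at least 20 alone gave 28.0% of all eligible genes, 6.67% of fibroblast, 0% of germline, 16.7% of blood and 25.9% of Hox genes. A −log10 q of at least 5 gave 36.2% of all and 10% of germline genes. Keeping 2 kb from gene ends, which leaves fewer eligible genes, gave 23.1% of formative and primed and 25% of ribosomal protein genes. With that pileup, the density ratio of genes of 10 to 20 over 30 to 50 kb went from 1.15 to 1.32, and that of 5 to 10 over 1 to 2 kb from an end from 1.28 to 1.02. The ratio of the first to the last of 5 parts of the gene, 0.847, reversed to 1.23 with that pileup, and was 0.672 without peaks at internal starts. Both of these alternatives were chosen after seeing the data, and the cause was not tested. Motifs and base composition of whole peaks, or of 100 bases around the summit, were not run, because no genome sequence was used here. The number of reads behind the list limits how faint a peak could be called, and the lowest pileup of a short-gene peak was 6. No second library bears on any value.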

Other observations

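Symbol families with at least 40 eligible short genes differed in how often their bodies held a peak, and were grouped after the values of the genes were known. Vomeronasal receptor genes (Vmn) held one in 13 of 131 (9.92%), at 4.78 per Mb (2.54 to 8.17), keratin genes (Krt) in 2 of 51 (3.92%), at 7.06 per Mb (0.855 to 25.5), and olfactory receptor genes (Olfr) in 8 of 143 (5.59%), at 10.8 per Mb (4.67 to 21.3). Pramel genes, at 9.33 per Mb (1.92 to 27.3), and genes with LOC symbols, at 10.7 per Mb (3.92 to 23.2), stood beside them. The intervals of these 5 groups lay below the 46.9 per Mb of all short genes. Cytochrome P450 genes (Cyp) were between, with 25 of 89 (28.1%) at 24.1 per Mb (17.2 to 32.9). Zinc finger genes (Zfp), with 148 of 338 (43.8%) at 44.3 per Mb (38.9 to 50.4), and solute carriers (Slc), with 151 of 260 (58.1%) at 48.8 per Mb (43.0 to 55.1), had intervals that include it. Rab genes, small GTPases of vesicle traffic, held one in 30 of 47 (63.8%), at 61.1 per Mb (45.6 to 80.1). Mitochondrial ribosomal protein genes (Mrpl) held one in 11 of 42 (26.2%), yet at 58.2 per Mb (32.6 to 96.0), so their low share stands beside short bodies. Members of a family can share sequence, and no source states how multiply mapped reads were treated.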
